A study of Mus musculus with 4 samples.

Results

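The cornified envelope precursor genes were followed in cultured mouse epidermal keratinocytes. Beside a loxP-flanked allele of Casp8, the gene of the initiator protease caspase-8, the cells carried a null or a wild-type allele. The set holds every gene probe that the array files name Sprr or Lce, or that they name for loricrin (Lor), involucrin (Ivl), filaggrin (Flg), hornerin (Hrnr), repetin (Rptn), cornifelin (Cnfn), envoplakin (Evpl), periplakin (Ppl), the transglutaminases Tgm1, Tgm3 and Tgm5, or Pglyrp3. This gave 38 of 41174 probes, which stand for 32 genes: 7 late cornified envelope (Lce) genes with 9 probes, 13 small proline-rich (Sprr) genes with 14 probes, and 12 other genes with 15 probes. All 38 probes were measured on every array and stayed among the 35562 probes tested. The files use old names for most of the first family. Only 1 probe is named Lce in them (Lce5a, now Lce1m), and 8 probes of 6 genes named Sprrl are Lce genes by their accessions, so both families were split by accession and not by the name in the file.

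The cultures fall into 4 groups of 2: Casp-8 F/- K5-Cre cells at passage 3, Casp-8 F/+ K5-Cre cells at passage 3, Casp-8 F/- K5-Cre cells at passage 1 and Casp-8 F/+ K5-Cre cells at passage 1. F is a loxP-flanked Casp8 allele, which F/- cells carry over a null allele and F/+ cells over a wild-type allele, and cells of both genotypes carry Cre under the keratin 5 promoter, whose activity is that of the basal layer. The mice, 2 of each genotype, have the age label P3, and the cells of their epidermis were cultured without serum, in a keratinocyte medium to which pituitary extract and EGF were added. Each of 4 two-colour Agilent arrays compared 1 pair of mice at 1 passage, with F/- RNA labelled with Cy3 and F/+ RNA with Cy5. The dyes were never exchanged, so a dye effect and genotype cannot be told apart in any genotype ratio, while an equal dye effect cancels in the comparison of passages. One label, the source name of the Cy5 RNA on the passage 3 arrays, gives the first passage; title, description and passage entry give the third and were followed.

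The cornified envelope is the protein shell that replaces the plasma membrane of a keratinocyte at the end of its life in the epidermis. Involucrin, envoplakin and periplakin form its first scaffold under the membrane. Loricrin, SPRR and LCE proteins are then crosslinked onto it by transglutaminases, and filaggrin bundles keratin inside the cell. Most of these genes lie side by side in one gene cluster, the epidermal differentiation complex. In mice, Sprr genes are known to be induced when the skin barrier is stressed, and Lor is the gene of the main envelope protein of normal epidermis.

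All 7 Lce genes, all 13 Sprr genes and 6 of the 12 others (Lor, Ivl, Flg, Hrnr, Rptn and Pglyrp3) lie on chromosome 3, and Tgm3 and Tgm5 share chromosome 2. In the order of the RefSeq annotation, Pglyrp3, Lor and the Sprr genes come first, then Ivl, the Lce1 genes, the Lce3 genes, Lce1m, and last Flg, Hrnr and Rptn. RefSeq promoter windows (assembly GRCm38.p6) were at hand for 27 of the 32 genes, in 28 windows since Tgm1 has 2. To show how the 2 families differ next to their start sites, the 200 bases before the start are printed 5' to 3' for 4 Lce genes, 2 Sprr genes and Lor. They lie at chr3:92670316-92670515 (Lce1a2), chr3:92656927-92657126 (Lce1b), chr3:92765066-92765265 (Lce1h), chr3:92944286-92944485 (Lce3c), chr3:92485882-92486081 (Sprr1a), chr3:92385485-92385684 (Sprr2h) and chr3:92083143-92083342 (Lor). Lce1a2, Lce1b, Lce1h, Sprr1a and Lor are read from the minus strand and Lce3c and Sprr2h from the plus strand. Capitals mark the letters TGANTCA, a match to the AP-1 motif, and the letters TATAAA and ATAAAA of a TATA box or a TATA-like run, which overlap in TATAAAA.
Lce1a2: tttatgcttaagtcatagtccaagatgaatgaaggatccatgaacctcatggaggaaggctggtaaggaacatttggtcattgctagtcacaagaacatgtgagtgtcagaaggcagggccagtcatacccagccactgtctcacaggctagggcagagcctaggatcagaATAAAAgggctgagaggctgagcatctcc
Lce1b: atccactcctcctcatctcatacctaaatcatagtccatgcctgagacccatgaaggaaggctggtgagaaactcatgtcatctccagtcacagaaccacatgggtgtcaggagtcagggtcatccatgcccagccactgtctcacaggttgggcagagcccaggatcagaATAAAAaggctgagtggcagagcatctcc
Lce1h: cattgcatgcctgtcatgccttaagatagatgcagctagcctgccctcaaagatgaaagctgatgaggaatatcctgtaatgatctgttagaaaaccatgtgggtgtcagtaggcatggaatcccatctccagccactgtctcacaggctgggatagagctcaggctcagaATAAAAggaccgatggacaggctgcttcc
Lce3c: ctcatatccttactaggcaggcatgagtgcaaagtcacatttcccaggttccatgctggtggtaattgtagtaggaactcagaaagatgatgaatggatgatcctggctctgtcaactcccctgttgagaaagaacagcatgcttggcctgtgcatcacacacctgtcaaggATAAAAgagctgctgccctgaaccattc
Sprr1a: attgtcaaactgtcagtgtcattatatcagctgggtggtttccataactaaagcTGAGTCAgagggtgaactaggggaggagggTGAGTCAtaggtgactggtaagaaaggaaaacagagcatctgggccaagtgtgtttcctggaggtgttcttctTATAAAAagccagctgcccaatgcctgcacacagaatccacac
Sprr2h: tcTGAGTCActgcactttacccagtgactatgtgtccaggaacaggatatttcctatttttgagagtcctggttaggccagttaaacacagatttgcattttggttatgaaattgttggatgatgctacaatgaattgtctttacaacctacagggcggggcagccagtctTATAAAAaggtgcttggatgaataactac
Lor: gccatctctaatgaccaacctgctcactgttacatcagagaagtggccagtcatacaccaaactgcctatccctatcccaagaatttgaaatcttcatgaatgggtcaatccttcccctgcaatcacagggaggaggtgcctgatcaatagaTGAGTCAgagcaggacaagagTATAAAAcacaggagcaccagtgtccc

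In the 250 bases before the start, TGANTCA was found in 8 of 11 Sprr windows, 0 of 7 Lce windows and 4 of 10 windows of the other genes (Flg, Ivl, Lor and Rptn), against 6.75% of all 32851 promoter windows of that length. TATAAA was found in 9 of 11 Sprr windows, 2 of 7 Lce windows and 6 of 10 others, against 12.4% of all windows. ATAAAA was found in 7 of 11 Sprr, 6 of 7 Lce and 4 of 10 other windows, against 5576 of all 32851. In 6 more Lce genes that the files list under clone names, ATAAAA was found in 6 and the AP-1 letters in 0. The remaining strings were searched on both strands. GGGCGG (GC box) was in 1 of 11 Sprr and 0 of 7 Lce windows against 32.7% of all. CACCC was in 5 and 2 against 52.0%, and TGACNNNGC (antioxidant response element) in 2 and 2 against 10.2%. AACNNGTT (Grhl) was in 0 and 0 against 3.64%, and the letters TTGCNNCAA in 0 and 0 against 1.74%. Many windows resembled each other among Lce1 genes and among Sprr2 genes, but not across a whole family. The 55 pairs of Lce1 windows, clone-named genes included, had a median identity of 62.4% (range 41.6 to 85.6), and 21 pairs of Sprr2 windows 62.1% (38.9 to 88.0). Medians were 45.5% for Lce1 with Lce3 windows, 43.2% for Sprr1 with Sprr2 and 40.9% for Sprr2 with Sprr4. The 143 pairs of an Lce with a Sprr window had a median of 43.5% (34.1 to 49.8). The lowest Lce1 and Sprr2 pairs lay within that range. A match is a description of letters in these windows. Neighbouring Sprr2 and Lce1 genes are also close copies of each other in their transcripts, probe sequences were not used here, and signal of one copy on the probe of another cannot be told apart from its own.

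All 4 arrays lay on 1 slide read in 1 scan. The share of spots well above background was 75.8% to 85.4% for Cy3 and 80.6% to 87.9% for Cy5, and 0 spots were saturated. Log2 ratios of F/- over F/+ correlated across probes with Pearson's r between 0.477 and 0.581 for any pair of arrays, which share dye orientation and slide. For the Cy5 RNA of the passage 3 arrays, whose source name gives the first passage, log2 signals of passages 3 and 1 correlated at 0.971 in pair 1 and 0.954 in pair 2, against 0.978 between both passage 3 samples and 0.993 between both passage 1 samples. All 8 keratinocyte markers were well above background in both channels of all 4 arrays, among them Krt5 and Krt14, and so were all 9 macrophage and all 7 fibroblast markers.

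Most envelope genes were lower at passage 3 than at passage 1 in both genotypes. At passage 3, 23 of 38 probes (20 genes) were lower than at passage 1 in F/- cells and 25 of 38 (20 genes) in F/+ cells, at an adjusted p under 0.05 in limma's separate-channel fit, and 0 were higher in either. Of all probes tested, 2.22% were called lower and 2.89% higher in F/- cells, and 2.43% lower and 3.23% higher in F/+ cells. The median change over the 32 genes was -1.98 on the log2 scale in F/- cells and -2.56 in F/+ cells, against 0.013 and 0.026 over all genes tested. Values per sample are log2 intensities after loess and Aquantile normalization; a level is a probe's own and is not compared between probes. In whole cultures, fewer cells of a type and less RNA per cell cannot be told apart.

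Lce3c, a late cornified envelope gene, had the lowest passage change of all 35463 probes in this fit in both genotypes. Its normalized log2 intensity at passage 3 was 7.98 and 8.03 in F/- cells and 8.79 and 8.18 in F/+ cells, against 16.63 and 15.41 in F/- cells and 15.70 and 16.07 in F/+ cells at passage 1 (pairs 1 and 2). The passages did not overlap in either genotype. The fall was -8.02 ± 0.66 in F/- cells (SE of the fit, n = 2 per passage, limma adjusted p = 0.00126), which is 259-fold, and -7.40 ± 0.66 in F/+ cells (169-fold, limma adjusted p = 0.00162). The second Lce3c probe gave -7.79 and -7.22.

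**Figure D1:**
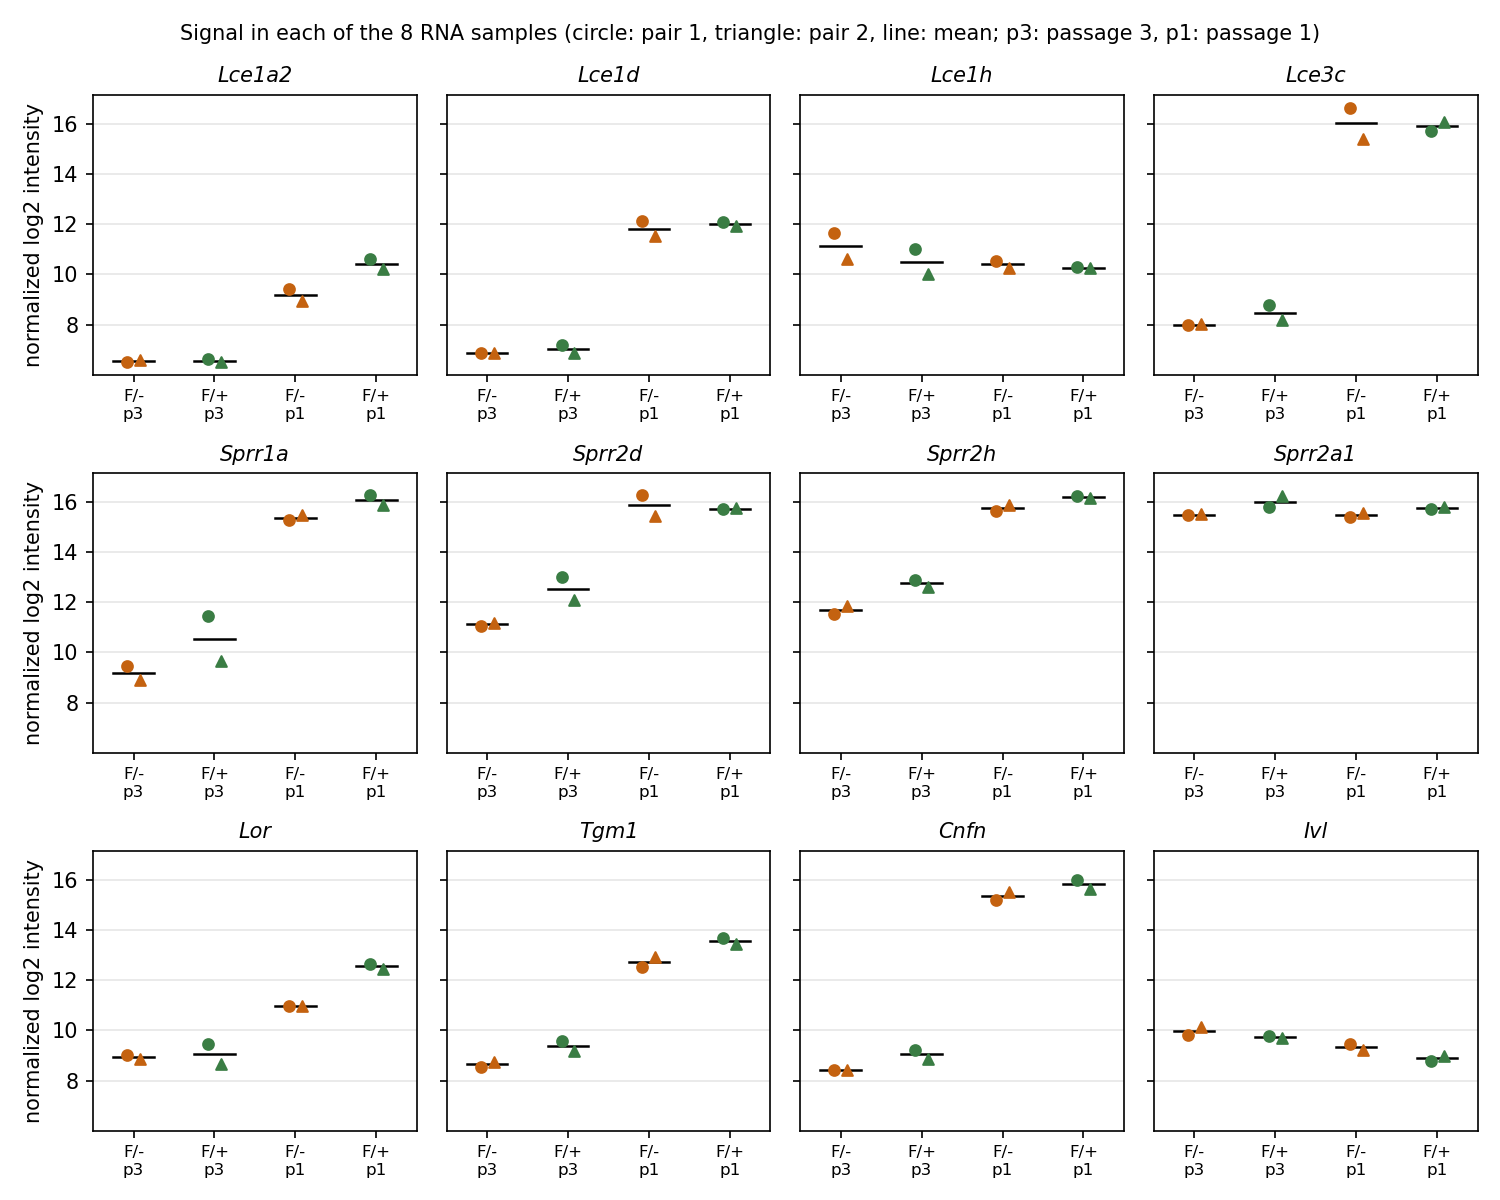
Normalized log2 intensity (vertical axis) of 12 envelope genes in the 8 RNA samples, grouped as F/- and F/+ cells at passage 3 (p3) and at passage 1 (p1); circles are pair 1, triangles pair 2 and lines the mean of both. Lce3c, Sprr1a and Cnfn lie far lower at passage 3 in both genotypes, while Sprr2a1 stays between 15.39 and 16.21. The means of Lce1h and Ivl are not lower at passage 3, though Lce1h in F/+ cells of pair 2 is (10.01 against 10.24).

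Of the 6 Lce1 genes, 5 were called lower at passage 3 in F/+ cells, 4 of these also in F/- cells, and Lce1h in neither. Lce1d read 6.88 and 6.88 in F/- and 7.18 and 6.88 in F/+ cells at passage 3, against 12.12 and 11.51 in F/- and 12.10 and 11.92 in F/+ cells at passage 1, a fall of -4.93 ± 0.26 and -4.98 ± 0.26 (limma adjusted p = 2.62e-04 and 2.22e-04). The changes of the 2 genotypes differed by 0.046 ± 0.20. Lce1a1 read 7.35 and 7.25 in F/- and 7.46 and 7.36 in F/+ cells at passage 3, against 11.65 and 11.57 in F/- and 12.68 and 12.42 in F/+ cells at passage 1. Lce1a2 read 6.53 and 6.60 in F/- and 6.62 and 6.53 in F/+ cells at passage 3, against 9.42 and 8.95 in F/- and 10.63 and 10.21 in F/+ cells at passage 1. In both genes the 4 cultures of passage 3 lay close together, while at passage 1 F/- cells stood below F/+ cells in both pairs. Their falls were -4.31 ± 0.15 and -2.62 ± 0.19 in F/- cells and -5.14 ± 0.15 and -3.84 ± 0.19 in F/+ cells (limma adjusted p between 9.76e-05 and 8.95e-04). Lce1b changed by -1.73 in F/- cells and -2.59 in F/+ cells (limma adjusted p = 0.0103 and 0.00186). Lce1m fell in F/+ cells (-3.97 ± 0.69, limma adjusted p = 0.0206) and stood at -3.10 ± 0.69 in F/- cells (limma adjusted p = 0.0501, and 0.0119 with the pair as a block). Lce1h read 11.64 and 10.64 in F/- and 11.02 and 10.01 in F/+ cells at passage 3, against 10.54 and 10.27 in F/- and 10.30 and 10.24 in F/+ cells at passage 1. Its passage change of 0.73 ± 0.32 in F/- and 0.24 ± 0.32 in F/+ cells was not called (limma adjusted p = 0.255 and 0.698).

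Among the small proline-rich genes, Sprr1a and Sprr1b fell most. Sprr1a, a crosslinked precursor that is also induced in wounded epithelia, read 9.47 and 8.89 in F/- and 11.45 and 9.66 in F/+ cells at passage 3, against 15.26 and 15.45 in F/- and 16.28 and 15.88 in F/+ cells at passage 1. The fall was -6.18 ± 0.61 in F/- cells (72.3-fold, limma adjusted p = 0.00251) and -5.52 ± 0.61 in F/+ cells (46.0-fold, limma adjusted p = 0.00355). Sprr1b changed by -5.62 in F/- cells and -5.14 in F/+ cells (limma adjusted p = 0.00146 and 0.00185). Sprr2d, of the Sprr2 subfamily of close copies, read 11.06 and 11.17 in F/- and 13.00 and 12.07 in F/+ cells at passage 3, against 16.28 and 15.44 in F/- and 15.72 and 15.73 in F/+ cells at passage 1. At passage 3 its F/- cultures stood below its F/+ cultures, and at passage 1 the 2 genotypes overlapped. Sprr2h read 11.54 and 11.83 in F/- and 12.90 and 12.62 in F/+ cells at passage 3, against 15.61 and 15.87 in F/- and 16.23 and 16.14 in F/+ cells at passage 1.

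The Sprr2 genes differed in the size of the change. Sprr2d, Sprr2g, Sprr2h, Sprr2j-ps and Sprr2k fell in both genotypes, with changes between -1.87 (Sprr2k) and -4.74 (Sprr2d) in F/- cells and between -1.16 (Sprr2k) and -3.43 (Sprr2h) in F/+ cells. Sprr2b, Sprr2e and Sprr2f fell in F/- cells (-1.87, -1.94 and -5.41, limma adjusted p = 0.0166, 0.0149 and 0.0262). In F/+ cells they stood at -1.19, -1.18 and -3.31 (limma adjusted p = 0.0684, 0.0696 and 0.107), and with the pair as a block at limma adjusted p = 0.0219, 0.00872 and 0.0233. Sprr2a1 read 15.45 and 15.50 in F/- and 15.79 and 16.21 in F/+ cells at passage 3, against 15.39 and 15.55 in F/- and 15.72 and 15.77 in F/+ cells at passage 1. Its changes of 0.0046 ± 0.20 and 0.25 ± 0.20 were not called (limma adjusted p = 0.992 and 0.513), nor were those of its second probe (-0.53 and 0.30). Sprr4 fell in F/+ cells (-1.25, limma adjusted p = 0.0121) and stood at -0.67 in F/- cells (limma adjusted p = 0.0966). Sprr3, a gene of internal stratified epithelia, read between 6.21 and 6.89 in all 8 samples, with changes of 0.069 and -0.20 that were not called.

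The scaffold, the crosslinking enzymes and the filaggrin relatives did not move as one. Cnfn, which encodes the envelope component cornifelin, read 8.44 and 8.44 in F/- and 9.22 and 8.88 in F/+ cells at passage 3, against 15.21 and 15.50 in F/- and 16.00 and 15.63 in F/+ cells at passage 1, a fall of -6.92 ± 0.30 (121-fold, limma adjusted p = 1.76e-04) and -6.76 ± 0.30 (108-fold, limma adjusted p = 1.66e-04). Tgm1, the membrane-bound transglutaminase of the epidermis, read 8.55 and 8.75 in F/- and 9.60 and 9.20 in F/+ cells at passage 3, against 12.54 and 12.92 in F/- and 13.67 and 13.45 in F/+ cells at passage 1. It changed by -4.08 in F/- cells and -4.16 in F/+ cells (limma adjusted p = 0.00126 and 0.00113). Tgm3 and Tgm5, the other epidermal transglutaminases, had changes of 0.20 and -0.29 in F/- cells and 0.31 and -0.48 in F/+ cells, none of them called. Lor read 9.04 and 8.88 in F/- and 9.47 and 8.69 in F/+ cells at passage 3, against 10.99 and 10.98 in F/- and 12.65 and 12.45 in F/+ cells at passage 1, a fall of -2.02 ± 0.30 in F/- and -3.47 ± 0.30 in F/+ cells (limma adjusted p = 0.0132 and 0.00157). As for Lce1a2, the genotypes overlapped at passage 3 and were apart at passage 1.

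Of the scaffold genes, Ppl changed by -1.71 in F/- cells and -1.67 in F/+ cells (limma adjusted p = 0.0171 and 0.0169). Evpl stood at -0.70 and -1.08 (limma adjusted p = 0.173 and 0.0553, and 0.0365 for F/+ cells with the pair as a block), and its second, dimmer probe fell in F/+ cells (-1.78, limma adjusted p = 0.0278). Ivl, the gene of the first scaffold protein, read 9.84 and 10.12 in F/- and 9.77 and 9.69 in F/+ cells at passage 3, against 9.45 and 9.23 in F/- and 8.80 and 8.97 in F/+ cells at passage 1. All 4 cultures of passage 3 thus lay above all 4 of passage 1, the reverse of most members. Its changes of 0.64 ± 0.23 and 0.84 ± 0.23 were not called (limma adjusted p = 0.179 and 0.0900), but a block for the pair brought F/+ cells to a limma adjusted p of 0.0268. Pglyrp3, which encodes a peptidoglycan recognition protein and lies beside Lor, had passage changes of -0.055 and -0.19, not called.

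The filaggrin relatives were dim at passage 3. Flg was not well above background in either F/- culture at passage 3 and Rptn likewise, so F/- cells give bounds only. At passage 3 Rptn was at least 2.82-fold lower than in F/- cells at passage 1 (limma adjusted p = 0.0273). The bound for Flg was at least 7.64-fold lower, with a limma adjusted p of 0.101, and of 0.0285 with the pair as a block. Such a bound sets the mean of the brighter group against the higher, on each array, of the lowest signal well above background and the dim probe's own. In F/+ cells Flg changed by -3.77 (limma adjusted p = 0.0475) and Rptn by -2.53 (limma adjusted p = 0.00338). Of 2 Hrnr probes, the brighter read between 6.36 and 6.87 in all samples (changes of -0.0063 and -0.32, not called). The dimmer was not well above background at passage 3 in either genotype and at least 2.36-fold lower than at passage 1 in F/+ cells (limma adjusted p = 0.00357). In F/- cells, where 1 of 2 passage 1 arrays had it well above background, it was at least 1.27-fold lower (limma adjusted p = 0.195).

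**Figure D2:**
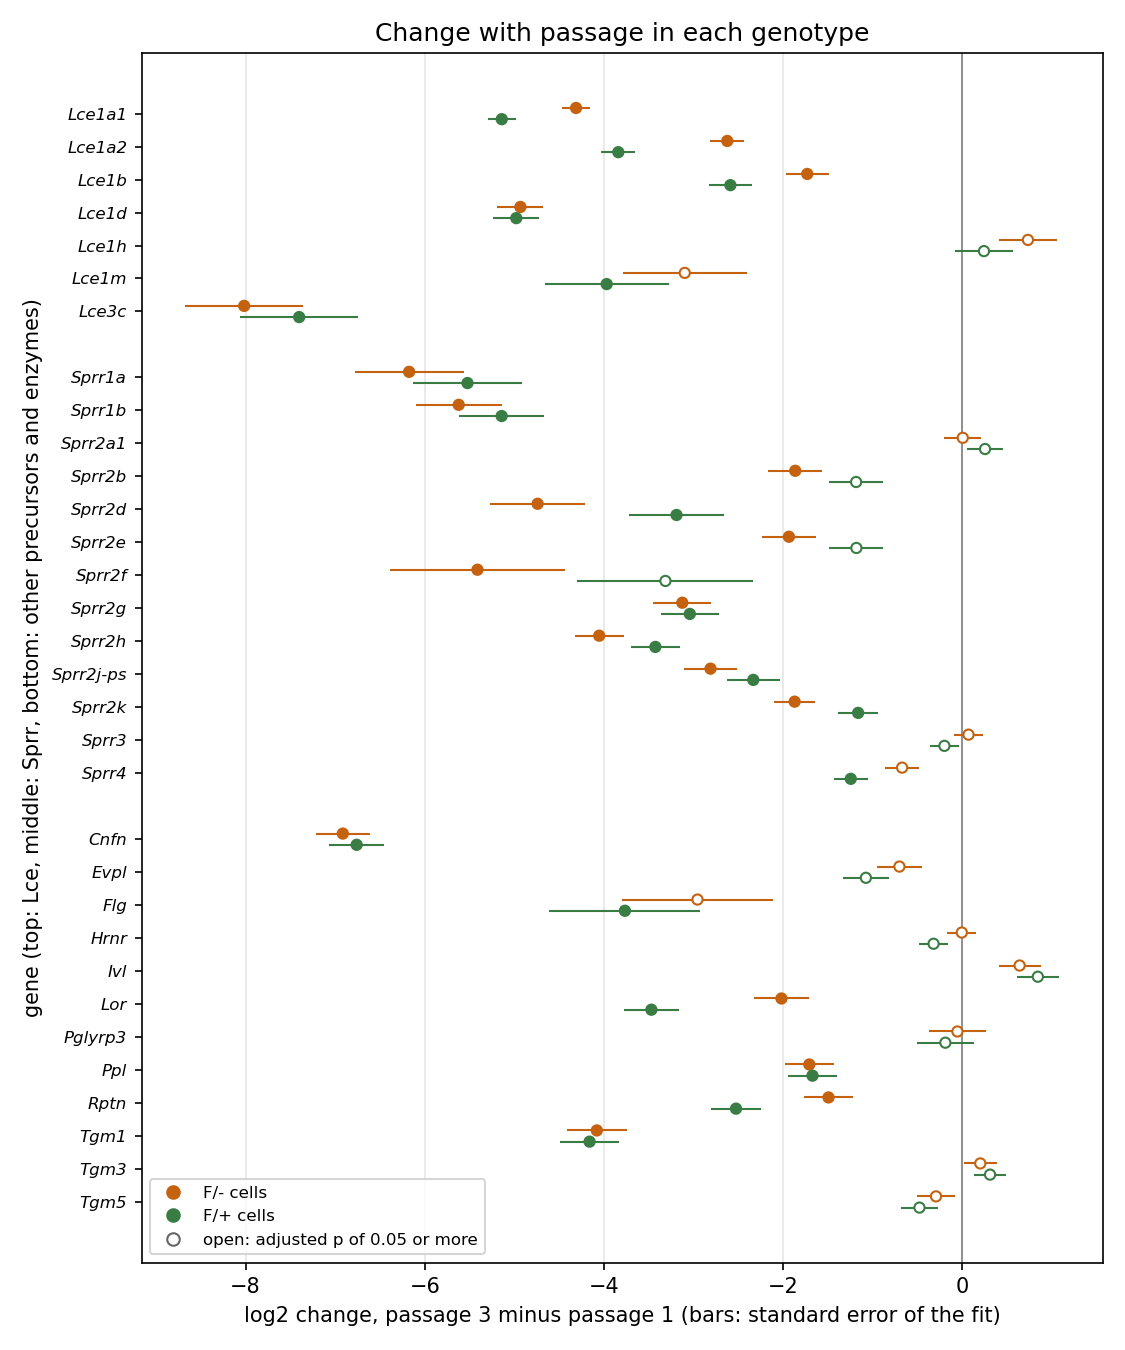
Log2 change of 32 envelope genes at passage 3 minus passage 1 (horizontal axis) in F/- cells and F/+ cells, with bars for the standard error of the fit and open points where the adjusted p was 0.05 or more. Lce3c, Cnfn, Sprr1a and Sprr1b lie furthest left. Ivl, Lce1h, Tgm3 and Sprr2a1 lie right of 0 in both genotypes, Sprr2a1 by only 0.0046 in F/- cells.

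Without the passage 1 array of pair 1, the Lce median with passage was -3.42 in F/- and -3.67 in F/+ cells. The Sprr median was then -2.42 and -2.16. Without the passage 1 array of pair 2, these medians were -2.92 and -4.63 (Lce) and -3.21 and -2.52 (Sprr). Of the 20 genes called lower in each genotype, 5 kept their call in both under all 10 alternatives run for the passage fit. They were Lce1a1, Lce1a2, Lce1d, Lce3c and Cnfn. The share of all probes that kept a call is not given here.

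Genotype ratios were lowest at passage 3 for the Sprr family and at passage 1 for the Lce family. At passage 3 the median log2 ratio of F/- over F/+ was -0.12 over the 7 Lce genes and -0.78 over the 13 Sprr genes, and at passage 1 it was -0.94 and -0.27, against medians of -0.023 at passage 3 and -0.017 at passage 1 over all genes tested. Without the passage 1 array of pair 2 the Sprr median at passage 1 was -0.027. With median centring it was -0.51, and the Lce median at passage 3 was -0.23. The 14 Sprr probes stood below 0 on both arrays of passage 3 (14 of 14, against 34.9% of all probes) and 8 of 14 did at passage 1 (34.1% of all). Of 9 Lce probes, 7 stood below 0 on both arrays at passage 3 and 5 at passage 1. Over all 38 members, 28 stood below 0 and 5 above 0 on both arrays of passage 3 (34.9% and 31.1% of all probes), 24 and 3 on both of passage 1 (34.1% and 33.1%), and 17 and 3 on all 4 arrays (19.9% and 18.9%). At the adjusted threshold 0 of 35562 probes were called at either passage (0% of all; smallest adjusted p = 0.0789 at passage 3 and 0.0701 at passage 1). At an unadjusted p under 0.05, limma gave 12 member probes lower and 3 higher at passage 3 (8.49% and 11.5% of all probes) and 14 lower and 2 higher at passage 1 (8.42% and 12.2%). At passage 3, 10 of the 12 lower probes were Sprr and 0 were Lce; at passage 1, 3 of the 14 were Sprr, 4 were Lce (Lce1a1, Lce1a2 and both Lce1b probes) and 7 were other genes.

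**Figure D3:**
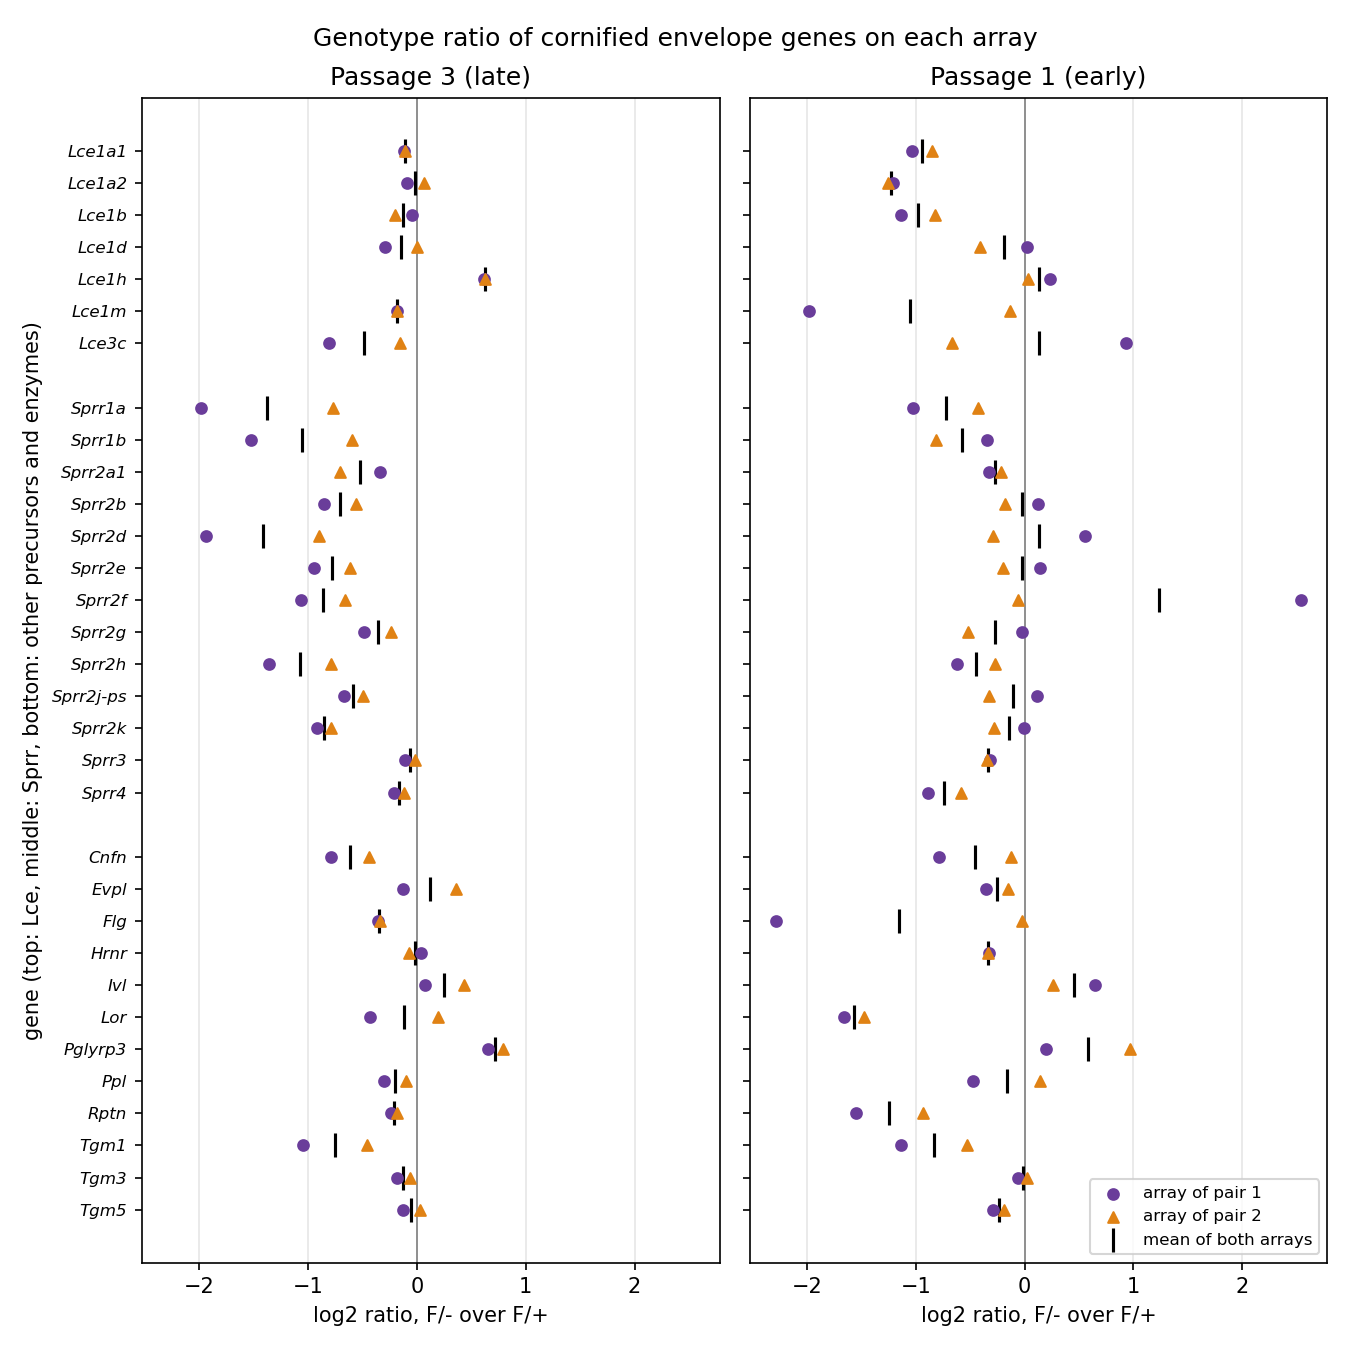
Log2 ratio of F/- over F/+ (horizontal axis) for each envelope gene on the 2 arrays of passage 3 (left) and of passage 1 (right), with circles for pair 1, triangles for pair 2 and a bar for their mean. Sprr genes lie left of 0 at passage 3, and Lce1a1, Lce1a2 and Lce1b lie left of 0 at passage 1 and near 0 at passage 3.

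The Lce1 genes with the lowest ratios at passage 1 were near 0 at passage 3 by their brightest probes. Lce1a2 had ratios of -0.094 and 0.067 at passage 3 and of -1.21 and -1.25 at passage 1 (pairs 1 and 2). Lce1a1 had -0.11 and -0.11 at passage 3 and -1.03 and -0.85 at passage 1, and Lce1b -0.046 and -0.20 at passage 3 and -1.14 and -0.82 at passage 1. The second, dimmer Lce1b probe was further from 0 at passage 3, with -0.38 and -0.31 there and -1.30 and -0.70 at passage 1. In each of the 3 genes the arrays of the 2 passages did not overlap. Lce1h stood above 0 on all 4 arrays, at 0.62 and 0.63 at passage 3 and 0.24 and 0.031 at passage 1. Lce1d lay near 0 throughout, with -0.29 and -0.00050 at passage 3 and 0.020 and -0.41 at passage 1. The pairs disagreed at passage 1 for Lce1m, with -1.98 in pair 1 and -0.13 in pair 2, and in sign for Lce3c, with 0.93 and -0.67. At passage 3 Lce1m had -0.19 and -0.18, and Lce3c -0.81 and -0.15. The near-0 ratios of passage 3 belong to low signals for Lce1a1, Lce1a2 and Lce1d, whose probes read 6.53 to 7.46 there and 8.95 to 12.68 at passage 1, and were well above background in all 8 samples. Of the 2 Lce1b probes, the brighter read 8.45 to 8.98 at passage 3 and the dimmer, further from 0, read 6.99 to 7.43. The background offset draws ratios of dim spots towards 0, and with an offset of 0 the Lce median at passage 3 was -0.17. The part of the offset in the ratio of each gene was not tested.

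Most Sprr genes had their lowest ratios at passage 3, where Sprr1 and Sprr2 genes read between 7.57 and 16.21. Sprr1a had -1.98 and -0.77 at passage 3 and -1.02 and -0.42 at passage 1, below 0 on all 4 arrays. Sprr2d had -1.94 and -0.90 at passage 3 and 0.55 and -0.29 at passage 1. Sprr2h had -1.36 and -0.79 at passage 3 and -0.62 and -0.27 at passage 1, and Sprr2k -0.91 and -0.79 at passage 3 and -0.0016 and -0.28 at passage 1. For Sprr2d, Sprr2h and Sprr2k the 2 passages did not overlap. Sprr1b had -1.52 and -0.59 at passage 3 and -0.34 and -0.81 at passage 1. Sprr2b, Sprr2e, Sprr2j-ps and Sprr2f ranged from -1.06 to -0.50 at passage 3, where each stood below both of its passage 1 ratios. Sprr2f had 2.54 in pair 1 and -0.063 in pair 2 at passage 1, the widest gap between pairs of any member. Sprr2g had -0.48 and -0.23 at passage 3 and -0.027 and -0.52 at passage 1, and Sprr2a1 -0.34 and -0.71 at passage 3 and -0.33 and -0.22 at passage 1. The second, dimmer Sprr2a1 probe had -1.03 and -0.67 at passage 3 and -0.22 and 0.19 at passage 1. Sprr4 and Sprr3 had their lowest ratios at passage 1 instead, with -0.21 and -0.12 (Sprr4) and -0.11 and -0.020 (Sprr3) at passage 3, and -0.89 and -0.59 (Sprr4) and -0.31 and -0.35 (Sprr3) at passage 1. Both genes were dim at passage 3, where Sprr4 read 6.61 to 6.89 and Sprr3 6.45 to 6.58. At passage 1 Sprr4 read 7.12 to 8.11, while Sprr3 was dim there too, at 6.21 to 6.89. The background offset draws ratios of dim probes towards 0, and its part in the ratios of either gene was not tested.

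Outside both families, Lor had -0.43 and 0.20 at passage 3 and -1.66 and -1.47 at passage 1. Rptn had -0.24 and -0.19 at passage 3, where F/- cells give a bound of at least 1.16-fold lower than F/+ cells, and -1.55 and -0.94 at passage 1. Lor was thus lowest at passage 1, as the Lce1a genes were, while for Rptn the bound at passage 3 leaves the order of the passages unknown. Flg had -0.36 and -0.34 at passage 3, at least 1.25-fold lower, and -2.29 in pair 1 and -0.027 in pair 2 at passage 1. Tgm1 had similar ratios at both passages, with -1.04 and -0.46 at passage 3 and -1.13 and -0.53 at passage 1. Cnfn had -0.79 and -0.44 at passage 3 and -0.79 and -0.13 at passage 1. Besides Lce1h, Pglyrp3 and Ivl stood above 0 on all 4 arrays: Pglyrp3, with 0.65 and 0.79 at passage 3 and 0.20 and 0.97 at passage 1, and Ivl, with 0.071 and 0.43 at passage 3 and 0.65 and 0.26 at passage 1. The brightest probes of Ppl, Evpl, Tgm3, Tgm5 and Hrnr lay between -0.47 and 0.36 on every array. The second probes of Ppl and Evpl reached -1.002 (Ppl, passage 1, pair 1) and 0.66 (Evpl, passage 3, pair 2).

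Averaged over both passages, 11 member probes were called lower in F/- cells and 1 higher, against 2.99% and 5.85% of all probes. The lower probes name Lce1a1, Lce1a2, Lce1b (both probes), Sprr2h, Sprr2k, Sprr4, Lor, Rptn and Tgm1, and the dimmer Hrnr probe; the higher one is Lce1h. Lor changed by -0.84 ± 0.88 (SD over 4 arrays of both passages, limma adjusted p = 0.0298), Tgm1 by -0.79 ± 0.35 (0.0442), Sprr2h by -0.76 ± 0.45 (0.0344), Rptn by -0.73 ± 0.65 (0.0335) and Lce1a2 by -0.62 ± 0.71 (0.0257). Lce1h changed by 0.38 ± 0.30 (limma adjusted p = 0.0360). Sprr1a had the lowest average, -1.05 ± 0.67, and missed the threshold (limma adjusted p = 0.0567). For Rptn and the dimmer Hrnr probe the passage 3 part of the average comes from F/- signals not well above background, so the sizes of their averages are not exact. This average takes the 2 passages of a pair as separate arrays: 0 member probes, and 0 of all probes, were called when each pair was averaged first, without either passage 1 array, or without the passage 3 array of pair 1. Without the passage 3 array of pair 2, 14 member probes were lower and 0 higher. With the pair as a block, 14 were lower and 2 higher, with Cnfn (limma adjusted p = 0.0338), Sprr1a (0.0280), the second Sprr2a1 probe (0.0354) and Pglyrp3 (0.0382) added. The share of all probes called is not given here for these settings, so their counts are not read as a result about the members. Centring each array on its median in place of loess gave 21 member probes lower and 0 higher, and 3050 and 917 of all probes in place of 1064 and 2082.

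The difference between passages in the genotype ratio was called for 0 of 35562 probes (smallest limma adjusted p = 0.820). At an unadjusted p under 0.05, 10 member probes had a higher ratio at passage 3 than at passage 1 and 7 a lower one, against 2.49% and 3.34% of all probes. The 10 were Lce1a1, Lce1a2, both Lce1b probes, Lce1h, Lor, Rptn, Sprr4 and both Hrnr probes, of which Rptn and the dimmer Hrnr probe have a bound only at passage 3. The 7 were 6 Sprr2 genes, Sprr2b, Sprr2d, Sprr2e, Sprr2h, Sprr2j-ps and Sprr2k, and the second Sprr2a1 probe. As a fitted difference, Lce1a2 stood at 1.22 ± 0.12 (SE, unadjusted p = 1.66e-04 in limma), Lor at 1.45 ± 0.24 (0.00186), Sprr2k at -0.71 ± 0.14 (0.00457) and Sprr2d at -1.55 ± 0.44 (0.0182). All 6 Lce1 genes had a positive difference (median 0.84) and all 9 Sprr2 genes a negative one (median -0.68), against a median of -0.0065 over all genes tested, and Lce3c stood at -0.61. With median centring the Sprr median of this difference was -0.25 in place of -0.63, and without the passage 3 array of pair 1 it was -0.39.

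**Figure D4:**
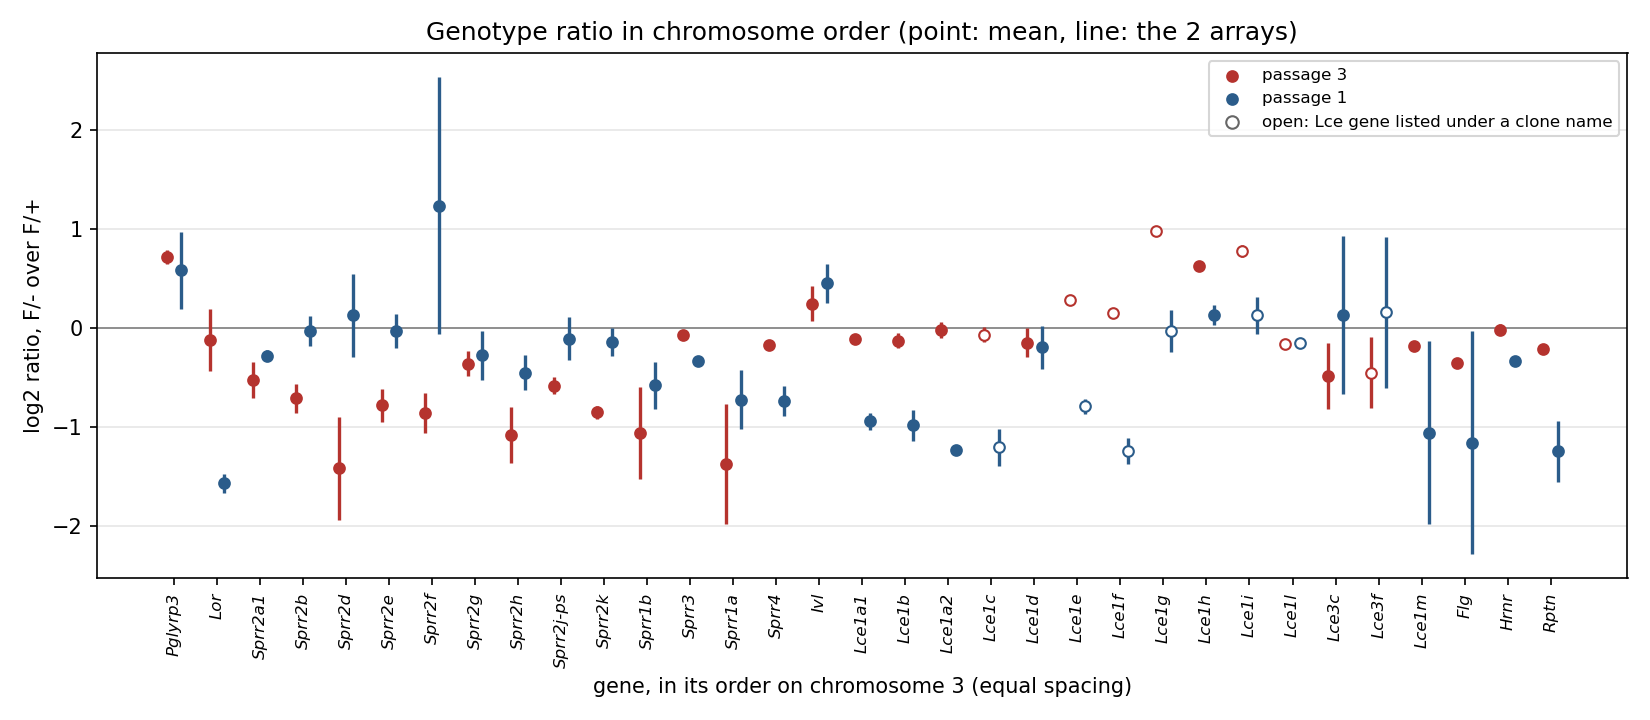
Log2 ratio of F/- over F/+ (vertical axis) at passage 3 and passage 1 for 33 genes in their order on chromosome 3, at equal spacing, with the mean as a point, the 2 arrays as the ends of a line, and open points for Lce genes listed under clone names. From Sprr2a1 to Sprr2k the passage 3 means lie below those of passage 1, and from Lce1a1 to Lce1i above them.

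The array holds 7 more Lce genes that the files list under clone names and that the choice by name leaves out. Their accessions name Lce1c, Lce1e, Lce1f, Lce1g, Lce1i, Lce1l and Lce3f. Lce1c, next to Lce1a2 on the chromosome, had ratios of -0.14 and 0.011 at passage 3 and -1.39 and -1.01 at passage 1. Lce1e and Lce1f had 0.31 and 0.26, and 0.12 and 0.18, at passage 3 and -0.86 and -0.71, and -1.37 and -1.11, at passage 1. Lce1g stood at 0.93 and 1.02 at passage 3 and 0.18 and -0.24 at passage 1, but its second, dimmer probe at 0.010 and -0.11 and at -0.22 and -0.098. Lce1i stood at 0.72 and 0.84 at passage 3 and 0.32 and -0.057 at passage 1. Lce3f followed Lce3c, with -0.81 and -0.090 at passage 3 and 0.93 and -0.60 at passage 1, and a passage fall of -7.15 in F/- and -6.54 in F/+ cells. Lce3f and Lce3c are close copies, and their probes were not told apart here. Lce1l lay between -0.19 and -0.12 on the 4 arrays. With these genes the Lce median was -0.089 at passage 3 and -0.49 at passage 1 over 14 genes, and -0.12 and -0.94 without them.

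Genes that accompany the envelope in the upper epidermis were compared as lists. Calls of list genes and cell markers in the genotype average have the limit given above: 0 of all probes were called when each pair was averaged first, or without any one of 3 of the 4 arrays. Of all probes, 2.99% were called lower and 5.85% higher in this average. With passage, 2.22% were lower and 2.89% higher in F/- cells, and 2.43% and 3.23% in F/+ cells. Of 15 suprabasal keratin and early differentiation genes 14 were tested (not Krt77), with a median ratio of -0.60 over both passages against -0.023 over all genes tested. In this average 6 fell and 0 rose: Krtdap at -1.47 ± 0.60, Sbsn at -1.19 ± 0.36, Calml3 at -1.14 ± 0.64, Calm4 at -1.11 ± 0.43, Dmkn at -1.07 ± 0.34 and Dsc1 at -0.64 ± 0.58. With passage, 8 of the 14 fell in F/- and 9 in F/+ cells. Of 21 processing and lipid attachment enzymes (Cers3, Pnpla1 and Ctsv were not tested), Spink5, a protease inhibitor gene, fell, at -1.86 ± 0.56 in the genotype average as did Sdr9c7, a lipid-processing enzyme gene, at -0.59 ± 0.55 with F/- signals not well above background at passage 3, and St14, the gene of the protease matriptase, rose, at 0.32 ± 0.14. Elovl4 and Klk5 stood at -0.80 and -0.70 and were not called, and the list's median was -0.24. With passage, 10 of these 21 were lower and 1 higher in F/- cells, and 10 lower and 2 higher in F/+ cells.

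Among 26 regulators of terminal differentiation (Grhl3 was not tested; median -0.099), Ovol1 and Satb1 fell in the genotype average, at -0.56 ± 0.37 and -0.38 ± 0.14, and Cebpa rose, at 0.67 ± 0.23. These calls stand against 2.99% of all probes lower and 5.85% higher. Hopx and Grhl1 stood at -0.97 and -0.82 and were not called (limma adjusted p = 0.0672 and 0.0736). With passage, 7 regulators fell in F/- and 6 in F/+ cells, and 0 rose. Of all probes, 2.22% were lower and 2.89% higher in F/- cells, and 2.43% and 3.23% in F/+ cells. Of 16 target genes of Nrf2, a factor known in mice to raise Sprr genes under oxidative stress, 0 were called in the genotype average (median 0.061). Those with the largest averages of 1 sign on all arrays were Gsta4 at -0.36, Txnrd1 at 0.32 and Gsta3 at -0.22. With passage, 4 fell and 2 rose in F/- cells, and 2 fell and 2 rose in F/+ cells.

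Markers of other cells moved with genotype and with passage. In the genotype average 3 of 9 macrophage markers were higher in F/- cells (Marco at 1.51 ± 0.24, Pf4 at 1.497 ± 1.25, Lyz2 at 1.27 ± 1.14; list median 0.83, above 0 for 8 of 9), 1 of 7 fibroblast markers was higher (Postn at 0.66 ± 0.14; list median 0.41), and 3 of 8 keratinocyte markers were lower (Krt14 at -0.66 ± 0.25, Krt5 at -0.60 ± 0.29, Col17a1 at -0.58 ± 0.18; list median -0.048). Of all probes, 2.99% were called lower and 5.85% higher in this average. Adgre1 (macrophage), Col1a1 and Dcn (fibroblast) stood at 0.83, 1.06 and 0.19 and were not called. Summed over the 9 macrophage markers, the normalized intensity was 9993 to 15545 in F/- and 3777 to 4045 in F/+ cells at passage 3, against 31814 to 45994 in F/- and 26817 to 30337 in F/+ cells at passage 1. Over the 7 fibroblast markers it was 6657 to 7557 in F/- and 3300 to 4642 in F/+ cells at passage 3, against 1713 to 1714 in F/- and 1268 to 1715 in F/+ cells at passage 1. Over the 8 keratinocyte markers it was 435165 to 460666 in F/- and 626096 to 642927 in F/+ cells at passage 3, against 495628 to 555291 in F/- and 569405 to 656974 in F/+ cells at passage 1. With passage, 3 macrophage markers fell in F/- and 5 in F/+ cells, 1 fibroblast marker rose in each genotype (Postn), and 0 keratinocyte markers were called. Of 5 Langerhans or T cell, 5 melanocyte and 3 endothelial markers 0 were called in the genotype average, with medians of -0.14, -0.068 and 0.0061. Ptprc, Cd207 and Cd3e stood at 0.33, -0.22 and -0.17, Tyrp1 and Mlana at 0.44 and -0.37, and no endothelial marker had 1 sign on all 4 arrays. With passage 4 melanocyte markers and 1 endothelial marker fell in F/- cells and 3 and 1 in F/+ cells, and 0 Langerhans or T cell markers were called. The part of these cells in the ratios of the envelope genes was not tested.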

How the data were processed

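Each scanner file the authors deposited holds, per the file headers, the intensity of every spot (mean signal, median background) in both dyes and a log10 ratio, Cy5 over Cy3. The submitters' processing notes name Agilent Feature Extraction 9.1.3.1. A deposited table of log10 values equals those ratios with the sign turned (largest gap 4.96e-06). Here limma 3.58.1 in R 4.3.3 was run on mean and background signals: normexp with an offset of 50, then loess within each array, to log2 values computed from the deposited intensities. Control spots had weight 0, and spots of a probe were averaged. A probe was tested if 2 or more arrays had it well above background in either dye and no more than 1 array lacked it (35562 of 41174).

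Genotype was fitted over all 4 arrays with passage as the group (2 residual degrees of freedom, 2.81 from the prior). Passage was fitted on 8 channels after loess and Aquantile (correlation within a spot 0.741). Tests were two-sided, with Benjamini-Hochberg adjustment over all probes and calls at 0.05. A gene with several probes is given by its brightest. Samples were grouped by their titles. The same mice were sampled at both passages, per the series' design text, so the numbers mark pairs of mice (correlation of deviations within a number -0.00047). Arrays share mice, and p-values over 4 arrays treat them as separate. Of 38 member probes, 30 were named by accession, 7 by symbol and 1 by an older symbol. All members are named. Of other lists the 3 genes with the largest average of 1 sign on all arrays and those called for genotype are named. Members and lists were chosen with earlier results of these data known. Promoters are from RefSeq (GRCm38.p6); identities come from global alignment (Biopython 1.88). The scripts were tested on simulated data.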

Additional observations from a re-analysis of the deposited data

Results flagged for a closer look

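For 4 probes the genotype ratios of both arrays lay above 0 at passage 3 and below 0 at passage 1, and for 1 probe the passage change ran in opposite directions in the genotypes. In the fit across all probes, none of these differences was called. The dimmer Hrnr probe had log2 ratios of F/- over F/+ of 0.031 and 0.024 at passage 3 and -0.90 and -0.80 at passage 1, a difference of 0.88 (limma, unadjusted p = 5.33e-04, adjusted p = 0.820), and was not well above background in either genotype at passage 3. The dimmer Evpl probe had 0.15 and 0.66 at passage 3 and -0.11 and -0.0026 at passage 1, a difference of 0.46 (limma, unadjusted p = 0.0673, adjusted p = 0.864). Among the Lce genes under clone names, Lce1e had a difference of 1.08 and Lce1f one of 1.39 (limma, unadjusted p = 2.74e-04 and 1.85e-04, adjusted p = 0.820 for both). Lce1i changed with passage by 0.38 and 0.16 in F/- cells and by -0.021 and -0.74 in F/+ cells (pairs 1 and 2), a difference of 0.65 (limma, unadjusted p = 0.0111, adjusted p = 0.820).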

How the results depend on the processing

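Of all results and alternatives run, 0 called values changed sign. The Lce median at passage 3 (-0.12) was -0.17 with a normexp offset of 0, -0.12 without background subtraction, -0.23 with median centring, -0.20 in the scanner software's ratios, -0.15 with the mean of each gene's probes and -0.089 with the clone-named Lce genes, an alternative added after seeing the data, which also gave -0.49 at passage 1. With an offset of 0 the Lce passage median was -3.63 in F/- and -4.92 in F/+ cells, 3 members were called lower at passage 1 (20 lower and 49 higher of all probes), and 2 were higher in the average. With median centring the Sprr median was -1.03 at passage 3, -0.51 at passage 1 and -0.25 for their difference, and members called in the average were 21 lower and 0 higher. For the average, 0 members were higher in the scanner's ratios. There were 2 with detection in both channels of all 4 arrays and 2 with the pair as a replicate block. With pairs averaged first, 0 were higher and 0 lower. Where a member count in this section has no count of all probes for its setting, it is not read as a result about the members. In F/+ cells 1 member rose with passage under median centring and 1 under the replicate block, which changed no call of a member beyond those given beside the results. The block gave 2073 probes higher and 1865 lower with passage in F/- cells and 2183 and 1942 in F/+ cells, against 1026, 787, 1146 and 860 without it. The average had 1297 probes higher and 636 lower in the scanner's ratios, and 1025 and 544 with the mean of each gene's probes.

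Leaving out 1 array at a time, called members ranged from 0 to 14 lower and 0 to 0 higher in the average, 9 to 22 lower and 0 to 1 higher with passage in F/- cells, and 12 to 27 lower in F/+ cells. Medians ranged from -0.12 to -0.11 (Lce, passage 3), -1.03 to -0.67 (Lce, passage 1), 0.59 to 0.92 (Lce, difference), -0.57 to -0.47 (Lce, average), -3.42 to -2.90 and -4.63 to -3.67 (Lce with passage in F/- and F/+ cells). For Sprr they ranged from -0.91 to -0.61 (passage 3), -0.29 to -0.027 (passage 1), -0.83 to -0.39 (difference), -0.47 to -0.38 (average), -3.21 to -2.42 and -2.60 to -2.05 (with passage in F/- and F/+ cells). These fits reused the correlation within a spot of all 4 arrays and take a lone array to vary like the others. The share of all probes called is not given beside the member counts of these fits. Those counts are therefore not read as a result about the members. The number of arrays limits the precision, and for dim probes so does the signal over background.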
